A study of Rattus norvegicus with 132 samples.

Results

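The renal medulla was compared between RM-HS and RM rats over 18 regions of interest (ROIs), 9 in each group, of 132 ROIs in the whole series. Members were all samples whose title names the medulla (M) and the group RM-HS or RM, and no measured value entered that choice. The series holds 4 groups (Sham, HS, RM and RM-HS) with 3 rats each and 4 areas: glomeruli, cortex, corticomedullary junction and medulla. Neither abbreviation is spelled out there. A usual reading is rhabdomyolysis (muscle breakdown) for RM and hemorrhagic shock (blood loss) for HS, which no label states. RM-HS carries both names and RM only the first, and both were set against medulla ROIs of Sham (9) and HS (6). The strain, age, dose and times are not given in the sources used here. Areas were picked by hand on sections of fixed, embedded kidney 4 um thick, and probes of the GeoMx mouse whole-transcriptome set were hybridised to the rat tissue, so that a rat gene is read through a probe designed for its mouse counterpart.

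The medulla carries the thick ascending limb of Henle, which reabsorbs salt through the cotransporter encoded by Slc12a1, beside thin limbs, collecting ducts and the vasa recta. It works at low oxygen tension even in health, and its tubules are a known site of damage when renal blood flow falls or when myoglobin from muscle is filtered. Injured tubule cells are known to switch on secreted inhibitors such as Timp1, calcium-binding S100 and annexin proteins and actin-binding proteins, while transport genes decline. Igfbp1 encodes a secreted protein that binds insulin-like growth factors, and its transcription is repressed by insulin.

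The promoters of 5 called genes, picked by hand, are shown with their matches to short motifs. Each window runs from 250 bases before to 50 bases after the start site in RefSeq (build GRCr8) and is printed 5′ to 3′ on the gene's strand. Igfbp1 lies at chr14:86261027-86261326 (+ strand), Gadd45a at chr4:97486750-97487049 (- strand), Ddit4 at chr20:28436988-28437287 (- strand), Timp1 at chrX:3771073-3771372 (- strand) and Hspa5 at chr3:38452766-38453065 (+ strand). Capitals mark matches on either strand to any of 11 motifs that were searched. The first 3 genes were higher in RM-HS and the last pair was lower.
Igfbp1: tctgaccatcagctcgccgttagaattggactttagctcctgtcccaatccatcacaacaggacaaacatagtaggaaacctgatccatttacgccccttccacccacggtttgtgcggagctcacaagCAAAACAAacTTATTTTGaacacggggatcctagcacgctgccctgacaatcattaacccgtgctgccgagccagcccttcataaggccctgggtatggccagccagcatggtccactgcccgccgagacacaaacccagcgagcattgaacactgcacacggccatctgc
Gadd45a: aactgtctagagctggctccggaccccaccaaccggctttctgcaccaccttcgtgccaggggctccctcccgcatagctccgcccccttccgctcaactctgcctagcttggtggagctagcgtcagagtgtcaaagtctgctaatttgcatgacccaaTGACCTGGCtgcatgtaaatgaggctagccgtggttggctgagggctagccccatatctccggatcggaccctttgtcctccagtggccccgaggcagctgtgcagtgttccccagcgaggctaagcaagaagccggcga
Ddit4: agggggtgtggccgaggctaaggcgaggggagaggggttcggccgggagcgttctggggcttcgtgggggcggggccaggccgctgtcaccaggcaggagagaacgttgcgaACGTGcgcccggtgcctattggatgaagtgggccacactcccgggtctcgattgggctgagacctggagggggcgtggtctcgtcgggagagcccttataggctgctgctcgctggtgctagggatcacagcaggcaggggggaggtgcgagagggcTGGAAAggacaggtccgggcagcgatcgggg
Timp1: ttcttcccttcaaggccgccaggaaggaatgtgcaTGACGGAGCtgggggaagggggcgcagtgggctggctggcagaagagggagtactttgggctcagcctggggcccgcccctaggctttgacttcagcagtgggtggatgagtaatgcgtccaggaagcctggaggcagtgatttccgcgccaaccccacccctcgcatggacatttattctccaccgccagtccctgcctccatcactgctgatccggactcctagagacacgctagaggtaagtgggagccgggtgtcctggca
Hspa5: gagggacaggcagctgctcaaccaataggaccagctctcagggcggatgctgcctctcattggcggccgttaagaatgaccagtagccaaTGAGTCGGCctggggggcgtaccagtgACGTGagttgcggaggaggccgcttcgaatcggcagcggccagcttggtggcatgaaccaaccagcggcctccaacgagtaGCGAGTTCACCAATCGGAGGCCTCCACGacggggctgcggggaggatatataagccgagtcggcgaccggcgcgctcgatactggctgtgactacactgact
In Igfbp1 the capitals are a pair of matches to the insulin response element CAAAANAA, at -121 and -111 from the start site. In Gadd45a and Timp1 they are 1 antioxidant element each (TGANNNNGC), at -90 and -215. Ddit4 holds the core of a hypoxia element (ACGTG) at -138 and a tonicity element (TGGAAA) at 19. Hspa5 holds an endoplasmic reticulum stress element at -43, directly after an antioxidant element at -52 and sharing no base with it. It also holds a further antioxidant element at -160 and a hypoxia core at -133.

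A window was found for 10 of the 19 genes that rose and 24 of the 33 that fell, and for Csrp3 none is shown. The hypoxia core was in 4 of 10 windows of rising genes (40%: Dnase1, Rasd1, Ddit4 and Slc9a3) and 6 of 24 of falling genes (25%), beside 19.7% of 27457 promoters in the table and 25% of those of tested genes. The antioxidant element was in 30% and 50% of the windows, beside 40.4% of all promoters and 42.9% of those of tested genes. The insulin response element was in Igfbp1 and Ube2d2b among called genes, and in 8.31% of all promoters (5.14% of tested). The endoplasmic reticulum stress element was in Hspa5 alone among called genes, and in 0.0765% of all promoters (0.182% of tested). These last motifs were added after the windows had been seen. The AP-1 site (TGANTCA) was in 3 falling genes (Rcan1, Eif4a2 and Anxa2) and in 7.33% of all promoters (4.82% of those of tested genes). The CRE (TGACGTCA) was in Rcan1 and Eef2 (1.91% of all, 3.14% of tested). The heat shock element (GAANNTTC) was in Eif4a2 and Ier5l (8.34% of all, 5.49% of tested). The partial glucocorticoid site (TGTTCT) was in Dnase1 and 4 falling genes (20.1% of all, 12.3% of tested), and the tonicity element in Ddit4 and 4 falling genes (22.4% of all, 16% of tested). The FOXO site (GTAAACA) was in Ypel3 (3.76% of all, 2.38% of tested), and the TATA box (TATAAA) was in Dnase1 and 4 falling genes (14.3% of all, 7.99% of tested). A match is a string of letters in this window and not a site shown to be bound.

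Medulla ROIs held 838546 to 1832943 recovered reads in RM-HS and 1125037 to 2192981 in RM. The marker of the thick ascending limb Slc12a1 averaged 640 ± 61.6 (SD, n = 9) in RM-HS medulla and 55.9 ± 10.1 (SD, n = 9) in RM-HS cortex. Values are signal scaled by the authors so that the upper quartile (Q3) of every ROI is equal. The negative probe, a set of sequences with no target, read 20.8 to 24.8 (median 22.3) in RM-HS and 13.4 to 25.1 (median 17.9) in RM. The RM runs were split, with means of 24.4 in run 1 and 15.9 and 17.2 in runs 2 and 3, against 23.4, 21.2 and 23.7 in RM-HS. Only RM runs 2 and 3 were thus lower, and the part of the negative probe in the results was not tested beyond the fit with it subtracted. Both groups lay on 1 plate, each in 3 runs of consecutive wells with 3 medulla ROIs a run, numbered here by order. Whether a run is 1 animal is not labelled, and no ROI is tied to a rat. With 9 ROIs from 3 rats, some ROIs share an animal, and p-values over ROIs are too small in every test that follows.

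RM-HS medulla differed from RM medulla in 52 of 8827 genes tested (0.589%) by limma at an adjusted p of 0.05. Of these, 19 were higher in RM-HS (0.215%) and 33 were lower (0.374%). The largest rises were Gm13889, Igfbp1 and Gadd45a, and the largest falls were Csrp3, Clec2j and Gm20792. Without regard to a test, the 9 RM-HS ROIs all lay above the 9 RM ROIs for 67 of all tested genes (0.759%) and all below for 72 (0.816%). Among called genes, the ROIs did not overlap for 16 of 19 rises and 21 of 33 falls. Those genes were selected by a difference between the same ROIs, which favours such separation, and nothing is read from these counts. The median log2 difference of all tested genes was 0.06, which is the shift against which small differences should be read. Most tested genes thus lay above 0, and counts of list members above 0 should be read against that.

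**Figure D1:**
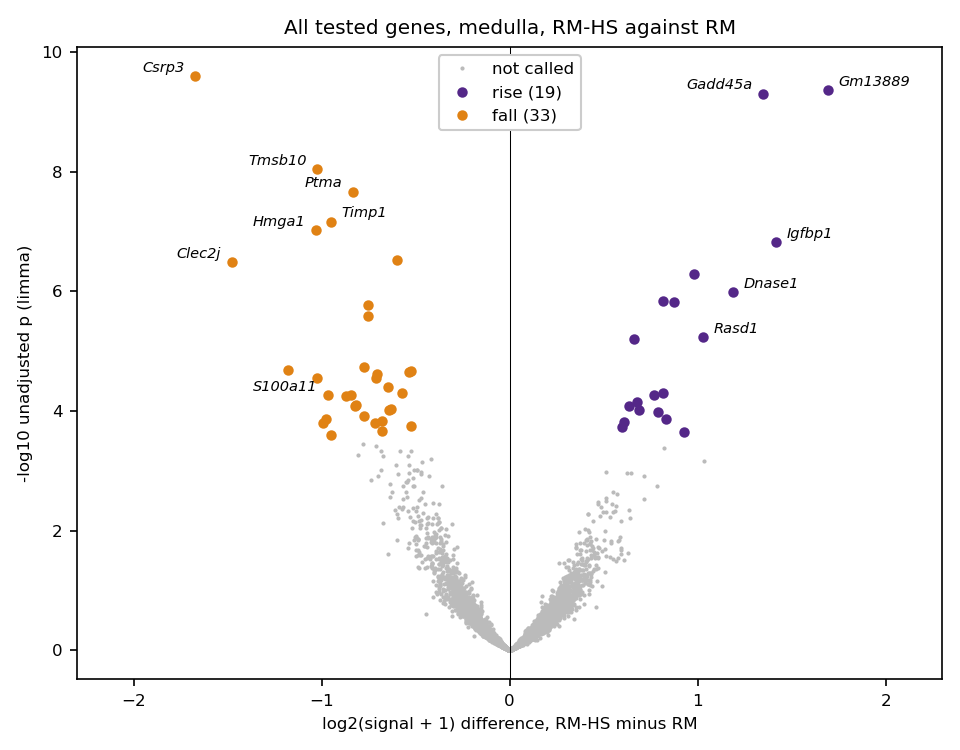
Each point is 1 of 8827 tested genes in medulla: the log2(signal + 1) difference of RM-HS minus RM (horizontal) against -log10 of the unadjusted limma p (vertical). The 19 called rises (purple) lie to the right and the 33 called falls (orange) to the left, with Csrp3, Gm13889 and Gadd45a at the top.

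Igfbp1 rose most among genes of known function. Its signal ran from 1137 to 1709 in RM-HS (median 1478), from 355 to 1024 in RM (median 489), from 44.9 to 203 in Sham (median 82.6) and from 124 to 302 in HS (median 219). All RM-HS ROIs lay above all RM ROIs, and RM lay above Sham. The log2 difference was 1.42 ± 0.26 (SE; limma adjusted p = 0.000165). By well run the RM means were 382, 856 and 490, and the RM-HS means were 1447, 1353 and 1536, so that RM run 2 came closest to RM-HS. Igfbp1 was also higher in RM than in Sham by 2.50, in RM-HS than in Sham by 3.92 and in HS than in Sham by 1.90 on the log2 scale.

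Gm13889, a predicted gene of the mouse annotation, showed the largest rise. Its signal was 200 to 379 in RM-HS (median 308), 62.2 to 143 in RM (median 85.5) and 33.7 to 67.0 in Sham (median 41.2). The RM-HS ROIs did not overlap with those of any other group in medulla, HS included (14.5 to 80.0). The log2 difference was 1.69 ± 0.25 (SE; limma adjusted p = 1.45e-06). Its name is not a rat symbol in RefSeq, as for 8 of the 52 called genes (Gm10265, Cyp2d12, Trp53inp2, Rgl2, mCherry/tdTomato, Gm20792 and Clec2j are the others).

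Gadd45a, a growth-arrest gene induced by DNA damage, rose in every ROI. It ran from 227 to 386 in RM-HS (median 356), from 103 to 159 in RM (median 118) and from 65.3 to 100.5 in Sham (median 81.9), a difference from RM of 1.35 ± 0.20 (SE; limma adjusted p = 1.45e-06). HS ROIs reached from 36.3 to 170 and overlapped with both Sham and RM. The other p53 targets and cell death genes did not rise with it: of 10 tested, 1 rose and 0 fell, and the list median was -0.01.

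Dnase1, which encodes a secreted nuclease, ran from 199 to 289 in RM-HS and from 70.2 to 133 in RM, with medians of 252 and 113. RM-HS lay inside the Sham range of 75.8 to 373, and the difference from RM was 1.19 ± 0.23 (SE; limma adjusted p = 0.000759). Rasd1, a Ras-related GTPase known to be induced by glucocorticoids, ran from 518 to 876 in RM-HS, from 251 to 462 in RM and from 42.9 to 78.4 in Sham. The 3 groups did not overlap, and the RM-HS difference from RM was 1.03 ± 0.22 (SE; limma adjusted p = 0.003). Its call was lost without RM-HS run 3 (limma adjusted p = 0.057) or RM run 1 (0.073).

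Ddit4, an inhibitor of the growth kinase mTORC1 that is known to respond to hypoxia and stress hormones, ran from 170 to 225 in RM-HS, from 97.8 to 144 in RM and from 59.2 to 81.9 in Sham. Again the groups did not overlap. The RM-HS difference from RM was 0.79 ± 0.20 (SE; limma adjusted p = 0.023), and the call was lost with any 1 of the 6 runs left out (adjusted p from 0.069 to 0.23). Slc9a3, the apical sodium-proton exchanger, moved the other way relative to Sham: 64.3 to 107 in RM-HS, 40.1 to 58.2 in RM and 56.6 to 124 in Sham. Its difference was 0.77 ± 0.19 (SE; limma adjusted p = 0.0156), and without RM-HS run 1 alone was it still called. Kctd1 (72.3 to 128 against 44.5 to 61.5) and Trp53inp2 (56.4 to 76.8 against 32.9 to 42.4) rose by 0.83 and 0.82 without overlap, and both calls were lost with any 1 run left out. Trp53inp2 was over 2 times the negative probe in 9 of 9 RM-HS ROIs but only 4 of 9 RM ROIs.

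**Figure D2:**
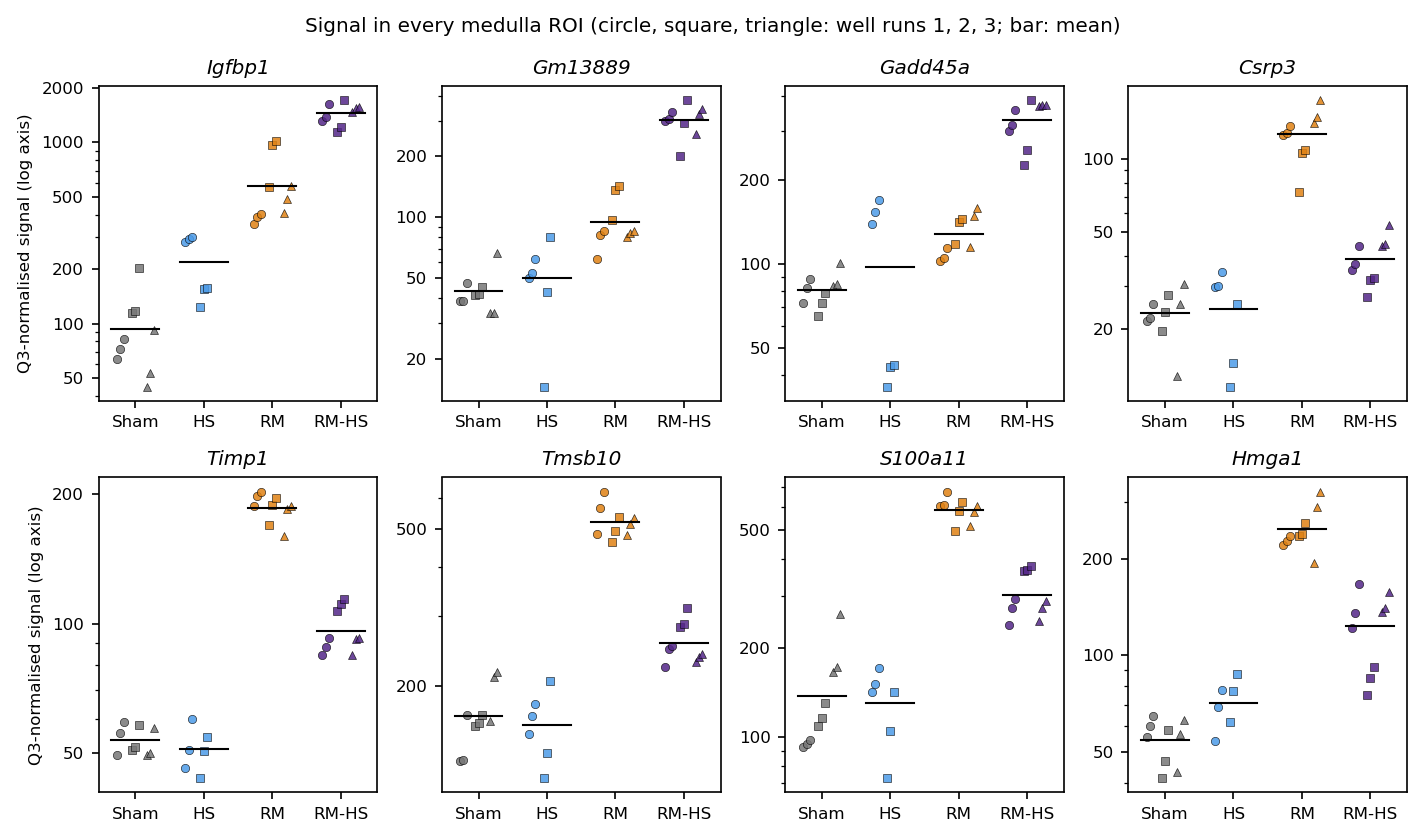
Q3-normalised signal (log axis) of 8 called genes in each of the 33 medulla ROIs, by group; symbols are well runs and bars are group means. RM-HS lies above RM for Igfbp1, Gm13889 and Gadd45a and below it for Csrp3, Timp1, Tmsb10, S100a11 and Hmga1, with no overlap between the 9 and 9 ROIs.

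Csrp3 showed the largest fall. It encodes a LIM-domain protein of striated muscle, and in RM medulla its signal was 73.2 to 174 (median 128) against 12.8 to 30.8 in Sham and 11.6 to 34.5 in HS. In RM-HS it was 27.0 to 53.7 (median 37.1), below every RM ROI. The difference was -1.67 ± 0.25 (SE; limma adjusted p = 1.45e-06). In RM-HS only 1 of 9 ROIs was over 2 times the negative probe, against 9 of 9 in RM, so that the RM-HS level is close to background. By run, the RM mean was lowest in run 2 (96.0), still above the RM-HS means of 38.8, 30.5 and 47.6.

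The other 6 muscle genes tested did not fall with Csrp3: 5 of the 7 differences in the list lay above 0 and none of the other 6 was called. Their summed signal was 220 to 244 in RM-HS, 193 to 243 in RM and 187 to 274 in Sham. With Csrp3 included, the sums were 252 to 289 in RM-HS and 294 to 375 in RM, without overlap. The median number of the 7 genes over 2 times the negative probe was 0 in RM-HS ROIs, 4 in RM, 3 in Sham and 3 in HS. This count was also lower in RM-HS than in RM for proximal tubule (6 against 10) and podocyte genes (4 against 6). For thick ascending limb genes it was equal (12 each). The negative probe that sets the count had a median of 22.3 in RM-HS and 17.9 in RM.

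Of 16 genes of tubular injury and repair tested, 4 fell in RM-HS (Tmsb10, S100a11, Timp1 and Anxa2) and 0 rose, 14 of the differences were at or below 0, and the list median was -0.37 against 0.06 for all genes. Timp1, which inhibits matrix metalloproteinases, ran from 84.3 to 114 in RM-HS (median 92.5), from 160 to 203 in RM (median 188) and from 49.3 to 59.1 in Sham (median 51.6). The 3 groups did not overlap, and the RM-HS difference from RM was -0.95 ± 0.17 (SE; limma adjusted p = 0.0001). Tmsb10, a thymosin that binds actin monomers, ran from 223 to 315 in RM-HS, from 464 to 623 in RM and from 128 to 217 in Sham. It lay between the levels of Sham and RM in RM-HS, with a difference from RM of -1.02 ± 0.17 (SE; limma adjusted p = 1.99e-05). It was called in every alternative fit that was run.

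S100a11, a calcium-binding partner of annexins, ran from 240 to 379 in RM-HS (median 288), from 496 to 676 in RM (median 604) and from 92.9 to 260 in Sham (median 116). RM-HS and RM did not overlap. The difference was -0.97 ± 0.23 (SE; limma adjusted p = 0.0156), and the call was held only without RM-HS run 2 (adjusted p from 0.080 to 0.19 without any other run). Anxa2, which binds membranes and actin in the presence of calcium, ran from 56.8 to 83.6 in RM-HS, 96.8 to 154 in RM and 25.0 to 39.8 in Sham. Its difference was -0.87 ± 0.21 (SE; limma adjusted p = 0.0156), lost with any 1 run left out (0.055 to 0.22). Anxa2 was over 2 times the negative probe in 2 of 9 Sham ROIs, so that its Sham level is close to background. S100a10, the light chain of the annexin complex, averaged 199 ± 11.1 (SD, n = 9) against 313 ± 53.8 and did not pass (limma adjusted p = 0.17). Havcr1, the injury marker KIM-1, is a member of the list and ran from 41.1 to 82.5 in RM-HS and from 36.3 to 108 in RM, overlapping widely.

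Hmga1, an architectural chromatin protein of proliferating cells, ran from 75.1 to 167 in RM-HS (median 135), 194 to 324 in RM (median 236) and 41.3 to 64.5 in Sham. No group overlapped another of these 3, and the difference was -1.03 ± 0.18 (SE; limma adjusted p = 0.000119). Myc, a transcription factor of growth and the single called member of 27 immediate early genes (median 0.00), ran from 82.4 to 99.6 in RM-HS and 117 to 187 in RM. It fell by 0.84 on the log2 scale, a call lost without RM-HS runs 1, 2 or 3 or RM runs 1 or 3 (limma adjusted p from 0.090 to 0.22). Ptma, which encodes the nuclear protein prothymosin alpha, ran from 643 to 803 against 1079 to 1412 and fell by 0.83 ± 0.14 (SE; limma adjusted p = 3.78e-05), a call kept without any 1 run.

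Of 16 translation factors tested, 4 fell (Eef2, Eif5a, Pabpc1 and Eif4a2) and none rose, 0 differences lay above 0 and the list median was -0.38. Eif5a, the factor that carries hypusine and relieves stalled ribosomes, ran from 239 to 336 in RM-HS and 378 to 527 in RM, and fell by 0.76 ± 0.15 (SE; limma adjusted p = 0.000981). It lost its call without RM-HS run 3 (0.057). Eef2, the translocation factor, averaged 413 ± 87.0 (SD, n = 9) against 719 ± 90.8, and its call held only without RM-HS run 2. Eif4a2 and Pabpc1 fell by 0.68 each. Eif4a2 lost its call with any 1 run left out and Pabpc1 with any but RM-HS run 2.

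Of 37 cytosolic ribosomal protein genes, 1 fell (Rps6) and 0 rose, 3 differences lay above 0 and the median was -0.30. Rps6, a small-subunit protein phosphorylated downstream of mTORC1, ran from 221 to 320 against 342 to 461 and fell by 0.57 ± 0.14 (SE; limma adjusted p = 0.0156), a call held only without RM-HS run 2. At an unadjusted p of 0.05, 20 of the 37 were lower and 0 higher, where 397 of all 8827 genes passed in either direction. With quantile normalization the medians were -0.25 for translation factors, with 2 differences above 0, and -0.21 for ribosomal proteins. Rpl10a, a further ribosomal gene outside the list, fell by 0.54 on the log2 scale (limma adjusted p = 0.00877), a call kept only without RM-HS run 2 or RM run 3.

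Of 21 actin and cytoskeleton genes, 2 fell (Tmsb10 and Cfl1), none rose and the median was -0.32. Cfl1 encodes cofilin, which severs actin filaments, and averaged 347 ± 40.8 (SD, n = 9) against 499 ± 48.6. It fell by 0.53 (limma adjusted p = 0.0323), a call held only without RM-HS run 2. Pfn1 and Msn, for profilin and moesin, had differences of -0.59 and -0.64 that did not pass (limma adjusted p = 0.31 and 0.24). Of 15 extracellular matrix genes, Timp1 alone was called, and 2 of the differences lay above 0.

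Hspa5, the chief chaperone of the endoplasmic reticulum, ran from 102 to 187 in RM-HS (median 130) and from 147 to 515 in RM (median 296). The groups overlapped, since RM run 3 averaged 157 while RM runs 1 and 2 averaged 300.2 and 425. The difference was -0.98 ± 0.25 (SE; limma adjusted p = 0.0277), and the call was lost without RM-HS run 1 (0.38) or 3 (0.37) or RM run 1 (0.23) or 2 (0.999). In its list of 11 unfolded protein and integrated stress genes, Ddit4 rose, Hspa5 fell and the median was 0.03. Cryab, a small heat shock protein abundant in the inner medulla, ran from 75.2 to 136 in RM-HS, 145 to 234 in RM and 88.8 to 245 in Sham. It was the 1 call among 12 heat shock genes (median -0.14), fell by 0.95 (limma adjusted p = 0.0422) and lost its call with any 1 run left out. Slc34a2, a sodium-phosphate cotransporter, ran from 33.1 to 64.9 in RM-HS, 76.1 to 139 in RM and 21.3 to 38.8 in Sham. It fell by 1.03 ± 0.24 (SE; limma adjusted p = 0.00994), a call lost without RM-HS run 3 or RM runs 1 or 3. Slc34a2 was over 2 times the negative probe in 9 of 9 RM ROIs but 4 of 9 in RM-HS and 1 of 9 in Sham. Its RM-HS and Sham levels are thus close to background.

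Of 16 thick ascending limb genes tested, 1 rose (Ppp1r1a), 1 fell (Cldn19), 14 differences lay above 0 and the median was 0.29. The summed signal ran from 3017 to 3832 in RM-HS, from 2008 to 2938 in RM and from 3042 to 7642 in Sham. RM-HS lay above RM in every ROI, also without Slc12a1 (2489 to 3120 against 1677 to 2325). In ROIs that hold many cells, fewer cells of a type and less RNA per cell cannot be told apart. The part of this difference in the other results was not tested.

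Ppp1r1a, an inhibitor of protein phosphatase 1, ran from 111 to 127 in RM-HS, 61.6 to 89.1 in RM and from 292 upward in Sham (median 351). It rose by 0.69 ± 0.17 over RM (SE; limma adjusted p = 0.0221), far below Sham, and the call was lost with any 1 run left out. Cldn19, a tight-junction protein of this segment, averaged 53.8 ± 10.2 (SD, n = 9) against 98.2 ± 31.1 and fell by 0.82, a call lost without RM-HS runs 1 or 2 or RM runs 1 or 2. Egf, the growth factor precursor of the distal nephron, averaged 385 ± 45.0 (SD, n = 9) in RM-HS and 223 ± 58.7 in RM and missed the threshold (limma adjusted p = 0.066). Slc12a1 averaged 640 ± 61.6 against 452 ± 115 (limma adjusted p = 0.86). In the list of collecting duct principal cells none of 8 genes was called, and 6 differences lay above 0. The 2 genes with the lowest p went opposite ways. Krt7 averaged 78.2 ± 6.58 (SD, n = 9) in RM-HS against 107 ± 12.6 in RM, and Aqp2 171 ± 19.7 against 115 ± 27.9. Of 8 thin limb genes, Cryab alone was called.

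Of 21 genes of insulin, fasting and glucocorticoid response, Igfbp1 alone was called, while 16 differences lay above 0 and the median was 0.29. Igfbp4, Insr and Per2 had differences of 0.63, 0.48 and 0.40 that did not pass (limma adjusted p = 0.13, 0.31 and 0.50). Insr, the insulin receptor, averaged 107 ± 7.67 (SD, n = 9) against 76.3 ± 7.65. Of 27 genes in the list of mitochondrial electron transport, 24 differences lay above 0, the median was 0.18 and none was called. Ndufa8, a complex I gene outside this list, was a called rise of 0.98 on the log2 scale (limma adjusted p = 0.000418). That call was lost without RM run 3. The hypoxia and glycolysis list (17 genes) and the oxidative stress list (13 genes) held no call. Bnip3, a mitophagy receptor induced by hypoxia, averaged 43.9 ± 7.54 (SD, n = 9) against 26.4 ± 4.91 (limma adjusted p = 0.25), and the metallothionein Mt1 1343 ± 146 against 937 ± 60.5 (limma adjusted p = 0.27). The Bnip3 levels are close to background, since the negative probe had a median of 22.3 in RM-HS and 17.9 in RM.

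Markers of other cells gave no call in RM-HS against RM. None of the macrophage (6 tested), neutrophil (2), lymphocyte (4), erythroid (3), endothelial (13), podocyte (12), proximal tubule (21) or urothelial (3) genes passed. The macrophage sum without Spp1 was 305 to 442 in RM-HS and 262 to 432 in RM. The erythroid sum was 973 to 8242 in RM-HS and 679 to 6025 in RM, a spread of several fold within each group.

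**Figure D3:**
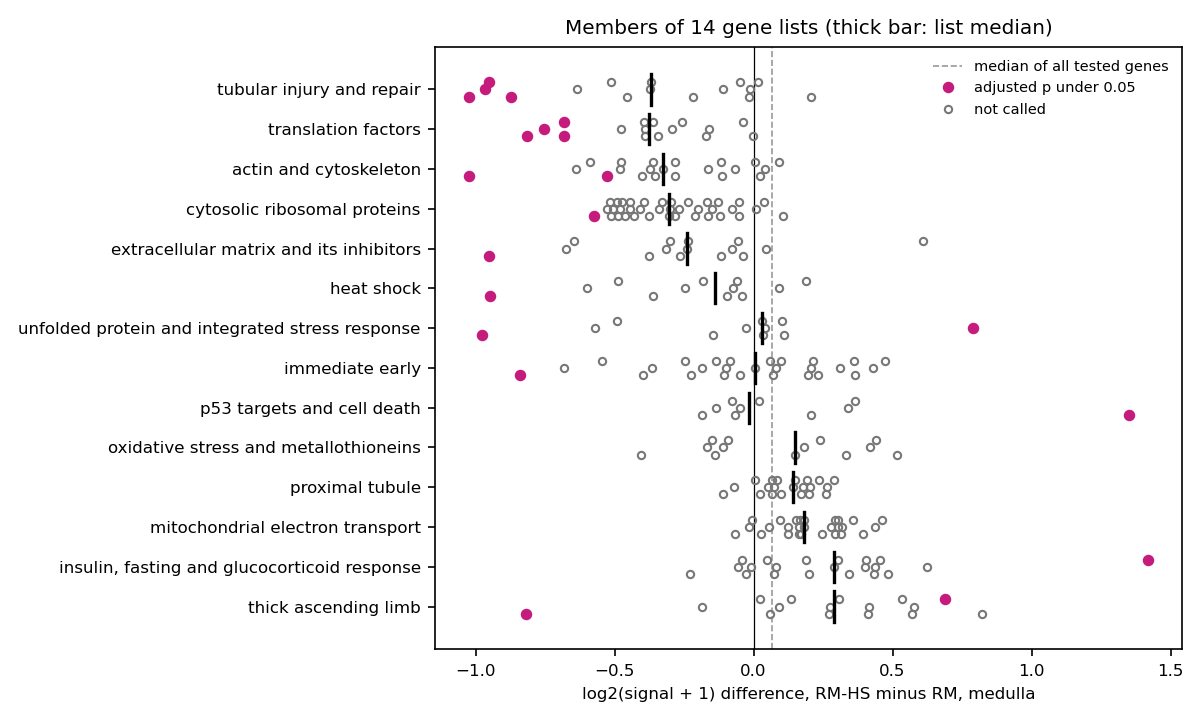
Each point is a gene of 1 of 14 lists, placed by its log2(signal + 1) difference of RM-HS minus RM in medulla; filled points passed an adjusted p of 0.05 and thick bars are list medians. The medians of the tubular injury, translation, actin and ribosomal lists lie left of the dashed median of all tested genes (0.06), and those of the thick ascending limb and insulin response lists to its right, with members on both sides in most lists.

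For 6 falls RM was not called against Sham while RM-HS was lower than Sham. These were Clec2j, Gm20792, Eln, Pgrmc1, Ube2d2b and the probe for the fluorescent reporters mCherry/tdTomato, for which the labels name no transgene. Clec2j ran from 142 to 451 in RM-HS, 298 to 1490 in RM and 616 to 1227 in Sham, a difference from RM of -1.48 ± 0.28 (SE; limma adjusted p = 0.000286). The RM runs were split: run 1 averaged 305 and runs 2 and 3 averaged 1160 and 934, against 201, 375 and 208 in RM-HS. Eln, the gene of elastin, was split likewise at 93.5 in RM run 1 and 233 and 261 in the other two, against 78.5, 120 and 78.8 in RM-HS. The reporter probe averaged 49.1, 109 and 109 in the RM runs and 43.0, 58.7 and 45.2 in the RM-HS runs. All 6 overlapped between the groups through RM run 1, in which every ROI lay below every Sham ROI for each of the 6, whereas every ROI of RM runs 2 and 3 lay above the lowest Sham ROI. RM run 1 was also the RM run with the highest negative probe.

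These probes were lower in RM-HS in all 4 areas: for Clec2j the difference was -0.85 in cortex, -0.92 at the junction and -0.91 in glomeruli, and for Gm20792 -0.77, -0.81 and -0.86. Neither passed there. Without RM run 2 none of the 6 was called (limma adjusted p = 0.10 for Clec2j, 0.47 for Gm20792, 0.58 for Eln and Pgrmc1, 0.999 for Ube2d2b and 0.65 for the reporter). Eln, Pgrmc1, Ube2d2b, Gm20792 and the reporter also lost their calls without RM-HS run 1 or 3 or RM run 3 (limma adjusted p from 0.14 to 0.95). The reporter probe was a median of 6.18 times the negative probe in RM and 2.01 times in RM-HS. A group of rises shared the split in the opposite sense. Gm10265 averaged 1356 in RM run 1 and 948 and 827 in runs 2 and 3, against 2252, 1329 and 2163 in RM-HS, and Smim22 863, 495 and 336 against 1226, 665 and 1159. Cyp2d12 averaged 508, 315 and 274 in the RM runs, and in RM-HS it averaged 751 in run 1 and 687 in run 3, while run 2 ran from 402 to 522 and overlapped with RM run 1 (lowest ROI 471). Without RM run 3 none of these 3 was called (limma adjusted p = 0.999 for Smim22, 0.0889 for Gm10265 and 0.17 for Cyp2d12). Without RM-HS run 1 none was called either (0.69, 0.078 and 0.053), and Smim22 and Gm10265 were also lost without RM-HS run 3 (0.64 and 0.070) and Smim22 without RM run 2 (0.23). For these 3 genes the ROIs of the groups overlapped, and Ndufa8, a subunit of respiratory complex I that did not overlap (66.3 to 96.1 against 22.5 to 56.3), lost its call without RM run 3 (limma adjusted p = 0.34). Ndufa8 was over 2 times the negative probe in 9 of 9 RM-HS ROIs and 6 of 9 RM ROIs.

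Both groups were then set against Sham. Of the 33 falls, 25 were higher in RM than in Sham by limma, where 4.84% of all tested genes were, and 0 were lower (1.12% of all). In RM-HS 10 of the 33 were higher than Sham (3.59% of all tested genes) and 6 were lower (0.906%). The 10 were Timp1, S100a11, Anxa2, Tmsb10, Hmga1, Myc, Slc34a2, Rcan1, Fam43a and Pabpc1. The 15 that were higher in RM and not called in RM-HS included Csrp3, Hspa5, Ptma, Eif5a, Eef2, Rps6 and Cfl1. The median over the 33 falls was 0.95 for RM minus Sham and 0.27 for RM-HS minus Sham, beside -0.07 and -0.01 over all tested genes. All 3 comparisons share ROIs, so that a gene called lower in RM-HS than in RM tends to stand high in RM by its selection, and nothing is read from the counts.

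Of the 19 rises, 5 were higher than Sham in both groups: Igfbp1, Gm13889, Gadd45a, Rasd1 and Ddit4. Another 4 were lower in RM than in Sham (Smim22, Gm10265, Slc9a3 and Ppp1r1a), of which Ppp1r1a was also lower in RM-HS. Ndufa8, Kctd1, Cyp2d12 and Rgl2 were higher than Sham in RM-HS and not called in RM. The median over the rises was -0.22 for RM minus Sham and 0.48 for RM-HS minus Sham. In HS against Sham 1 rise was called higher (Igfbp1), where 0.0453% of all genes were, and 1 fall was called lower (Dynll1, a dynein light chain), where 0.329% were.

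**Figure D4:**
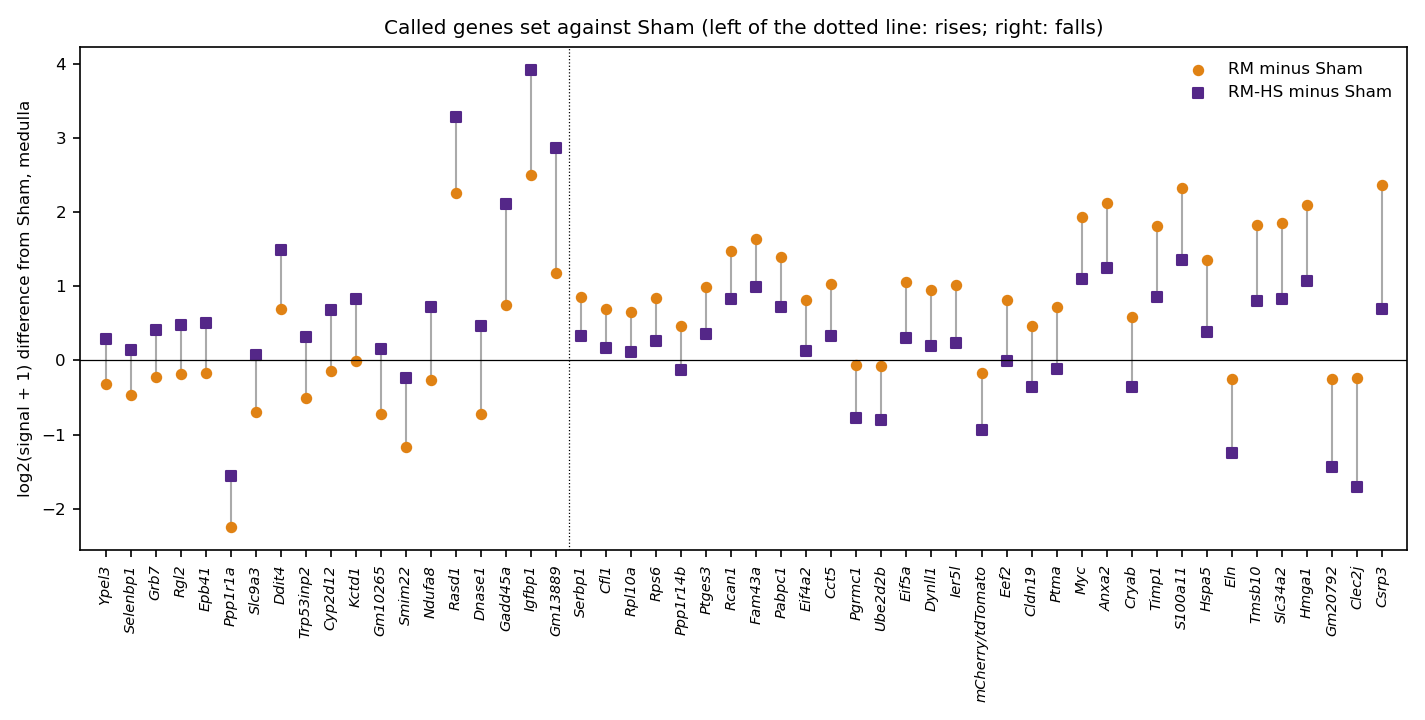
For each of the 52 called genes, the log2(signal + 1) difference from Sham in medulla is drawn for RM (orange circles) and RM-HS (purple squares), rises left of the dotted line and falls right. Most falls sit above 0 in RM and nearer 0 in RM-HS, while Clec2j, Gm20792, Eln, Pgrmc1, Ube2d2b and mCherry/tdTomato sit near 0 in RM and below it in RM-HS.

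Whether the difference depended on the area was tested by setting the medulla against the mean of cortex, junction and glomeruli. By limma 24 genes passed (0.272% of those tested), 16 of them among the 52 called in medulla: 6 rises and 10 falls. The contrast contains the medulla difference by which the 52 were selected. Their share and direction among the 24 are thus partly set by that selection, and nothing is read from these counts. The 4 with the lowest p were Gm13889, Hmga1, Csrp3 and Timp1. With the negative probe subtracted 0 genes passed (147 at an unadjusted p of 0.05), and without RM-HS run 2 or 3 or RM run 1 or 2 the count was 8, 12, 8 and 15. Gm13889 averaged 304 ± 51.9 (SD, n = 9) in RM-HS medulla and 94.9 ± 26.8 in RM medulla, while at the junction it was 77.7 ± 26.0 (n = 8) against 61.2 ± 11.8 and the difference was -0.20 in cortex and -0.55 in glomeruli on the log2 scale. Its medulla difference exceeded the mean of the other areas by 1.84 on the log2 scale (limma adjusted p = 6.31e-08).

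Csrp3 in cortex averaged 34.1 ± 6.46 (SD, n = 9) in RM-HS and 34.1 ± 4.54 in RM, and at the junction 35.2 ± 5.85 (n = 8) against 48.4 ± 8.67. Only in RM medulla was it raised to 127 ± 28.9. Timp1 in cortex was 45.0 to 72.8 against 59.6 to 78.9, and its medulla contrast was -0.98 (limma adjusted p = 3.46e-05). Hmga1 turned its direction at the junction, where RM-HS averaged 177 ± 52.1 (SD, n = 8) and RM 84.9 to 115, a difference of 0.80 ± 0.19 (SE; limma adjusted p = 0.0183). In medulla the same gene was 123 ± 32.5 against 247 ± 38.7, and the contrast of medulla with the other areas was -1.30 (limma adjusted p = 9.43e-08).

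In the other areas taken singly, limma called 0 genes in cortex (0% of those tested, 98 at an unadjusted p of 0.05), 36 at the junction (0.408%) and 167 in glomeruli (1.89%). The glomerular ROIs in the fit held 88434 to 155018 reads in RM-HS (n = 6) and 88068 to 209188 in RM (n = 8). Every medulla ROI of these groups held more reads, and glomeruli are part of the mean of the other areas used above. Of the 52 medulla genes, Hmga1 was called at the junction, and Dynll1, Eef2 and Ptma were lower in RM-HS in glomeruli as well. The median difference of the 19 rises was 0.18 in cortex, 0.36 at the junction and 0.10 in glomeruli, and of the 33 falls -0.27, -0.19 and -0.33.

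**Figure D5:**
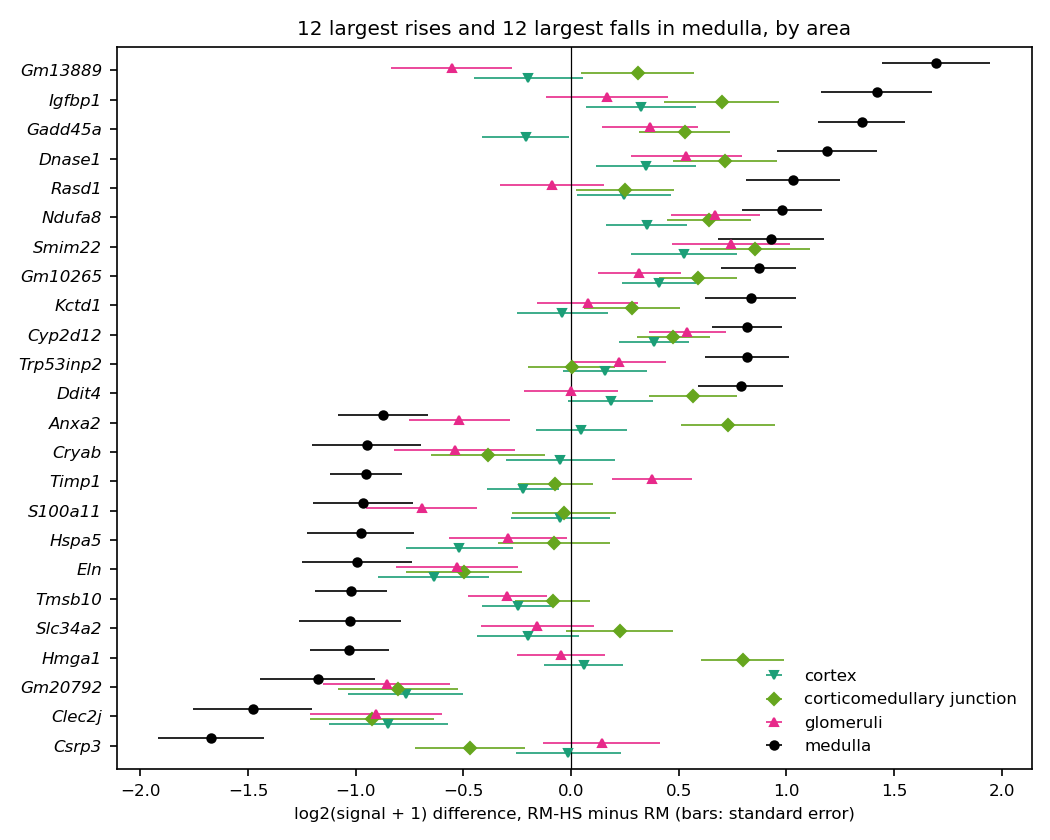
The log2(signal + 1) difference of RM-HS minus RM with its standard error for the 12 largest rises and 12 largest falls in medulla, shown for medulla (black circles), cortex, junction and glomeruli. Gm13889, Csrp3, Timp1 and Hmga1 differ in medulla by more than in the other areas, whereas Clec2j and Gm20792 lie between -0.77 and -0.92 in all 3 other areas.

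A last test asked whether RM-HS minus RM in medulla differed from HS minus Sham. By limma 30 genes passed (0.34% of those tested), among them 10 of the 52: Gm13889, Gadd45a, Ndufa8, Trp53inp2 and Ppp1r1a upward and Hmga1, Csrp3, Fam43a, Ier5l and Myc downward. This contrast too contains the difference by which the 52 were selected, so that nothing is read from the count of 10. Gadd45a differed by 1.58 (limma adjusted p = 0.0043) and Csrp3 by -1.67 (0.0226). Igfbp1, which was also higher in HS than in Sham, was not called in this test. The count of 30 became 12 or 18 without RM-HS run 2 or 3, and 19 or 16 without RM run 2 or 3. The 6 HS ROIs of medulla came from 2 well runs on another plate, with 494654 to 1157391 reads in run 1 and 66598 to 138976 in run 2, and the plate was a term of the fit. The runs were split, with means of 154 and 40.9 for Gadd45a, 54.9 and 23.7 for Ndufa8 and 60.3 and 40.0 for Trp53inp2. Without HS run 2, 3 genes passed, 2 of them among the 10 (Csrp3 and Fam43a), and Gadd45a differed by 0.66 (limma adjusted p = 0.9999). Without HS run 1, 88 passed, while Csrp3 (-1.15, limma adjusted p = 0.22), Fam43a and Myc did not. Without Sham run 2, 18 passed. Sham run 3 was the single Sham run on the HS plate, so that without it plate and HS cannot be told apart. These fits were added after seeing the data, and with 1 HS run the lone run is assumed to vary like the others.

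Of the 52 calls, 10 passed in each of the 6 fits that left out 1 well run: Igfbp1, Gm13889, Gadd45a and Dnase1 among rises and Csrp3, Timp1, Tmsb10, Hmga1, Ptma and Ppp1r14b among falls. The other 42 were lost in at least 1 of those fits. With the negative probe subtracted from every value, 17 of the 52 were still called, among them Gadd45a, Csrp3, Timp1, Tmsb10 and Ptma, while Igfbp1 (limma adjusted p = 0.0613), Gm13889, Dnase1, S100a11 and Hmga1 were not. Their log2 differences after subtraction were 1.46, 1.96, 1.35, -1.04 and -1.23. Subtracting a similar background from both groups tends to widen a log2 difference by arithmetic, so that nothing is read from these sizes. The number of all genes called was 18, 42 and 16 without RM-HS run 1, 2 or 3 and 29, 19 and 25 without RM run 1, 2 or 3. When each well run was reduced to 1 mean, 4 genes were called: Gm13889, Hmga1, Tmsb10 and Csrp3 (limma adjusted p = 0.000696, 0.0407, 0.0376 and 0.00249).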

How the data were processed

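Signal was measured with the GeoMx profiler in 132 ROIs, of which the 18 medulla ROIs of RM-HS and RM are described. The deposited table holds Q3-normalised signal of 9271 genes and a negative probe. The authors scaled each ROI to an equal upper quartile, as the values show, so that a change in total RNA is not seen. The submitters' processing notes name GRCh38 and hg38, with no role stated. Whole reads were recovered from the steps between values (tolerance 0.0001).

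Genes over 2 times the negative probe in 10% of ROIs were kept (8827; 444 left out). Log2(signal + 1) was fitted in limma 3.58.1 (R 4.3.3, statmod 1.5.0) over 131 ROIs with 16 means of group and area, a plate term and the well run as a random block (correlation 0.132), with trended variances, two-sided tests and Benjamini-Hochberg adjustment at 0.05. The 1 RM glomerular ROI on a plate of its own was left out. Correlations of log2 values were 0.917 to 0.970 within groups and 0.897 to 0.939 between them, and 0 of 153 pairs were identical. Alternatives included edgeR 4.0.16 and DESeq2 1.42.0 on recovered reads, other normalizations, filters and samples, and each well run left out. The fit was tested on simulated data.

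Genes are named by rule: the 12 largest called rises and falls, up to 4 called members of each list (without a call, up to 2 with the lowest p), the 4 called genes with the lowest p in the contrast of areas, and Igfbp1, Csrp3, S100a11 and Timp1. Other called genes, and Havcr1, Msn, Pfn1, S100a10, Egf, Slc12a1, Igfbp4, Insr and Per2, were chosen after their values were seen. The members and lists were chosen with earlier results of these data known.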

Additional observations from a re-analysis of the deposited data

Results flagged for a closer look

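Each contrast of this section contains the medulla difference by which the 52 genes were selected, so that nothing is read from the counts. The RM-HS minus RM difference in medulla differed from the mean of the other areas for 16 of the 52 genes by limma. Among rises it was larger in medulla by 1.84 on the log2 scale for Gm13889 (adjusted p = 6.31e-08), 1.02 for Igfbp1 (0.0285), 1.12 for Gadd45a (0.000121), 0.89 for Rasd1 (0.0225), 0.87 for Epb41 (0.000414) and 0.72 for Selenbp1 (0.00595). Among falls the contrast was -1.56 for Csrp3, -1.30 for Hmga1, -0.98 for Timp1, -0.98 for Slc34a2, -0.96 for Anxa2 and -0.81 for Tmsb10. It was -0.67 for Ier5l, -0.63 for Fam43a, -0.61 for Eif5a and -0.47 for Ppp1r14b, with adjusted p from 3.47e-06 to 0.0494 over falls other than Hmga1 (9.43e-08).

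The same difference departed from HS minus Sham in medulla for 10 of the 52. The departure was 1.86 for Ndufa8, 1.73 for Gm13889, 1.58 for Gadd45a, 1.37 for Ppp1r1a and 1.32 for Trp53inp2 on the log2 scale. It was -1.67 for Csrp3, -1.47 for Hmga1, -1.30 for Ier5l, -1.30 for Myc and -1.11 for Fam43a. The HS side rests on 2 split well runs, 1 of them with 66598 to 138976 reads, and without that run Csrp3 and Fam43a alone of the 10 passed. The limma adjusted p ran from 8.92e-05 for Ndufa8 to 0.0434 for Myc. No ROI stood far from its group in a screen of 48 groups of values from 24 genes.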

How the results depend on the processing

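All 52 calls kept their direction in each of 18 alternatives in which the gene was tested (46 were tested under the stricter filter). With quantile normalization 40 of the 52 were still called. The calls lost there were Smim22, Serbp1, Cfl1, Rpl10a, Ppp1r14b, Ptges3, Fam43a, Eif4a2, Pgrmc1, Ube2d2b, Hspa5 and Eln. The count of 52 (36.5% higher in RM-HS) was 84 with quantile normalization (47.6% higher), 18 with the negative probe subtracted (22.2%; all-gene median -0.10), 670 on the 18 ROIs alone (46.3%), 294 on 33 medulla ROIs, 195 on the plate of both groups, 4 with 1 mean per well run, 1470 with edgeR and 1548 with DESeq2. The edgeR and DESeq2 fits used the 18 ROIs with no block on well run, so that each ROI counted as a replicate. The limma count ran from 16 to 42 without 1 run. The contrast of areas (24) gave 43 with quantile normalization, 0 with the negative probe subtracted (limma; 147 at an unadjusted p of 0.05), 65 on the 1 plate, 13 without the block on well run, 2 with run means and 8 to 19 without 1 run. The contrast with HS minus Sham (30) gave 94, 12, 255 (33 medulla ROIs), 106 (no block on well run), 1 (run means) and 3 to 88 without 1 run, HS and Sham runs included (12 to 22 without an RM-HS or RM run); the HS and Sham runs were left out as alternatives chosen after seeing the data. The causes were not tested. No paired analysis was possible because the labels give no replicate numbers that groups share. Csrp3 in RM-HS was 1.25 to 2.24 times the negative probe, which limits its fold. The same holds for Slc34a2, at 1.48 to 3.00 times in RM-HS.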
